A study of Homo sapiens with 6 samples.

Results

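The matrix metalloproteinases (MMPs), the ADAM and ADAMTS proteases and their inhibitors, the TIMPs and RECK, were examined in DBTRG cells, an established human glioblastoma line. The members were the genes of the deposited table whose symbols are those of a numbered MMP, ADAM or ADAMTS gene, of TIMP1 to TIMP4 or of RECK. There were 70 such genes among 58884, comprising 24 MMP, 22 ADAM and 19 ADAMTS genes and 5 inhibitors. Of these, MMP23A, ADAM5 and ADAM6 are annotated as pseudogenes. RNA was sequenced after 5 days of culture in a soft gel (3D) or on a rigid dish (2D), with 3 libraries per group, all labelled wild type. The labels give neither the gel material nor its stiffness, nor whether the replicates are separate cultures, so that p-values reflect only how these libraries vary, possibly for technical reasons.

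MMPs are zinc-dependent endopeptidases made as inactive proenzymes, and together they cleave most proteins of the extracellular matrix. ADAMs are membrane-anchored relatives, of which those with an intact zinc-binding site shed the ectodomains of growth factors, receptors and adhesion molecules, while ADAMTS enzymes are secreted and cut proteoglycans, procollagens and other matrix proteins. TIMPs block the active sites of these enzymes, and TIMP3 has the broadest reach, including several ADAM and ADAMTS enzymes. In glioma, the gelatinase MMP2 and its membrane-bound activator MMP14 are known for their link to invasion through brain tissue.

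The soft gel libraries held 23483383, 24135807 and 20911340 counts and the rigid dish libraries 25901465, 24169976 and 23944233. Log2 CPM (counts scaled to library size) of all tested genes correlated at 0.975 to 0.987 within groups and 0.949 to 0.969 between groups, which is a correlation across genes, not across independent replicates. Of the glioblastoma and astroglial markers, OLIG2 was at 0 in all 6 libraries and GFAP averaged 0.843 ± 0.492 TPM (abundance scaled to gene length and depth) in soft gel and 0.670 ± 0.306 TPM on the rigid dish. CHI3L1 (0.723 TPM in soft gel and 0.603 TPM on the rigid dish), S100B (2.15 and 1.01 TPM) and AQP4 (4.47 and 3.51 TPM) were also low. VIM, CD44, SOX2, SOX9, NES and EGFR were expressed. Of the 10 markers tested as described below, SOX2 and CD44 were higher in soft gel and VIM, NES and EGFR lower (edgeR adjusted p below 0.05). That is 50.0%, beside 28.6% of all tested genes. Among markers of other cell types, the 5 endothelial genes summed to 1.00 to 2.04 TPM in soft gel and 0.66 to 1.72 TPM on the rigid dish. The 5 epithelial genes summed to 154 to 177 TPM in soft gel and 294 to 351 TPM on the rigid dish, nearly all from KRT18 and KRT8, which both fell, with EPCAM and CDH1 near 0. The 5 myeloid genes summed to 36.6 to 44.3 TPM in soft gel and 9.38 to 12.4 TPM on the rigid dish, nearly all from CD68, which rose, with PTPRC and CD14 near 0. The 5 neuronal genes summed to 8.90 to 13.1 TPM in soft gel and 12.1 to 15.6 TPM on the rigid dish. The part of these genes in the results below was not tested, and in such bulk samples fewer cells of a type cannot be told apart from less RNA per cell.

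Every family held genes that rose and genes that fell in soft gel, and the largest change of mean TPM among tested members was a rise of the matrix protease ADAMTS9. Of the 70 members, 43 passed the low-count filter and were tested. Among these, 12 were higher and 7 lower in soft gel by edgeR's quasi-likelihood test at an adjusted p below 0.05 (Benjamini-Hochberg over all genes). That is 44.2% of the tested members, beside 28.6% of the 16098 genes tested (15.4% higher and 13.2% lower). Scaled CPM of the groups did not overlap for 27 of the 43, where 44.6% of all tested genes showed no overlap. The median log2 fold change (soft gel over rigid dish) was 0.30 over the tested members and 0.05 over all tested genes. By family, 3 of 13 tested MMP genes were higher and 3 lower, 3 of 12 ADAM genes were higher and 2 lower, 5 of 13 ADAMTS genes were higher and 1 lower, and 1 of 5 inhibitors was higher and 1 lower. Leaving out soft gel 1, soft gel 2 or rigid dish 3 left 6 members higher, and leaving out rigid dish 2 left 7. Leaving out soft gel 2 or rigid dish 2 left 4 members lower, while 11 were lower when rigid dish 1 was left out. ADAMTS9, ADAMTS1, ADAMTS2, ADAM19, MMP10, MMP17, TIMP3 and TIMP4 kept their calls under all 15 alternatives run. With limma on log2(TPM + 1), ADAM8, ADAM15, ADAM22, ADAMTS5, ADAMTS7, ADAMTS13, MMP15, MMP16 and MMP28 no longer passed (adjusted p = 0.0547 to 0.358).

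**Figure D1:**
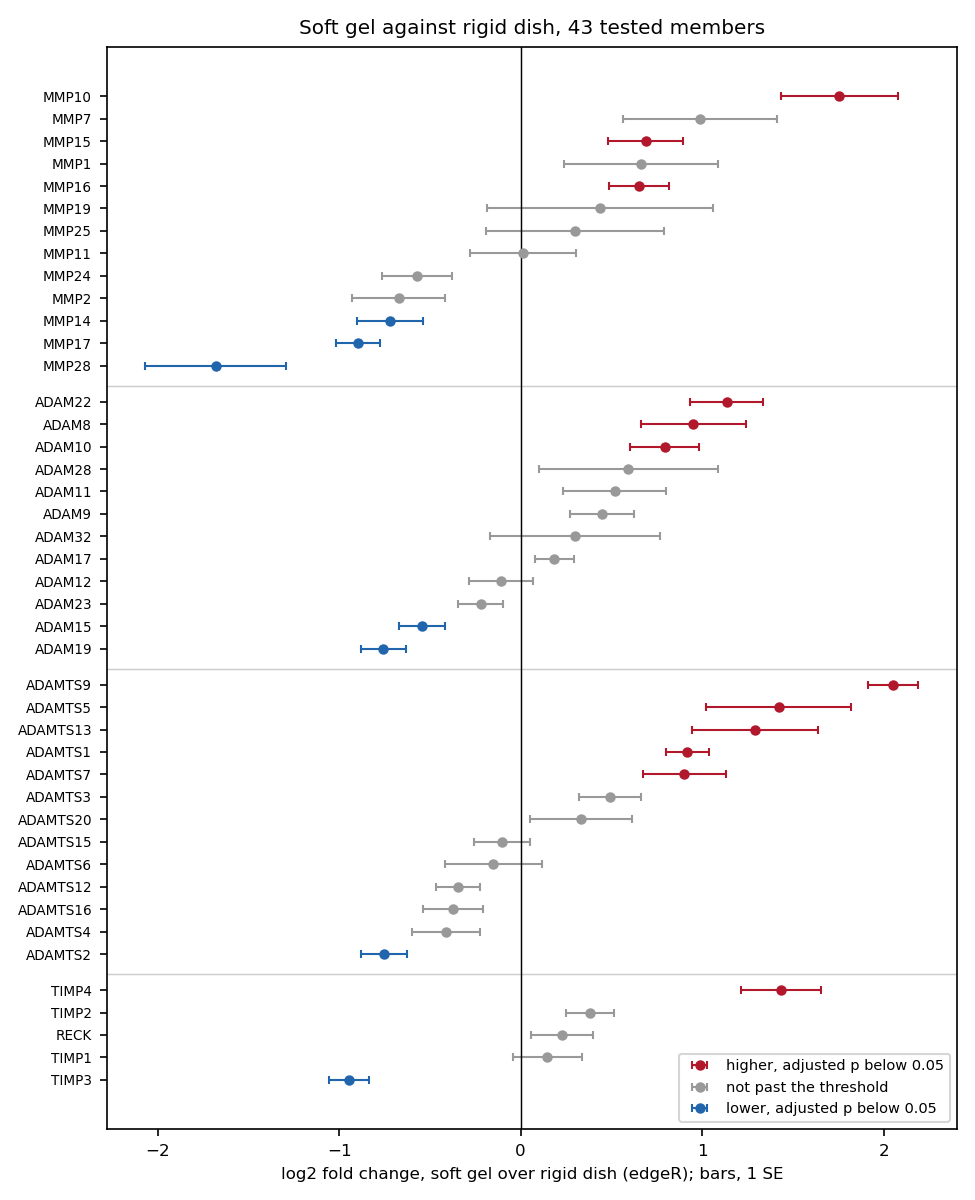
Log2 fold changes of the 43 tested members (soft gel over rigid dish, edgeR), by family from top to bottom (MMP, ADAM, ADAMTS, inhibitors), with bars of 1 SE. The 12 genes past the threshold to the right of 0 run up to ADAMTS9 at 2.05, and the 7 to the left run down to MMP28 at -1.68.

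The remaining 27 members had few reads. In 6 of them no library held a count (MMP13, MMP26, MMP27, ADAM2, ADAM6 and ADAM30), which at 3 counts allows up to 0.116 to 0.143 CPM per library, for counting error only. Another 15 never exceeded 9 counts, among them the gelatinase MMP9, the stromelysin MMP3, the macrophage elastase MMP12 and the neutrophil collagenase MMP8. The highest count among the untested members was 20, in MMP23B, whose near-identical copy MMP23A can share its reads, so both are uncertain. ADAMTS19 had 5, 15 and 5 counts in soft gel and 1, 0 and 0 counts on the rigid dish.

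By level, 20 members averaged 10 TPM or more in at least 1 group. TIMP1 was highest in both, at 391 ± 16.0 TPM in soft gel and 329 ± 67.7 TPM on the rigid dish (SD, n = 3 each). ADAM9, a widely expressed sheddase, had rank 2 in both groups, although in soft gel its lowest library (163 TPM) lay within the range of TIMP2 (160 to 179 TPM). On the rigid dish, ADAM9 (124 to 201 TPM) overlapped MMP2 (91.4 to 162 TPM) and TIMP3 (124 to 139 TPM). The order changed below these genes. ADAMTS9 had rank 5 in soft gel and 11 on the rigid dish, and ADAM10 rank 4 in soft gel and 8 on the rigid dish. MMP2 had rank 6 in soft gel and 3 on the rigid dish, and TIMP3 rank 7 in soft gel and 4 on the rigid dish, where the lowest MMP2 library lay below every TIMP3 and TIMP2 library. In soft gel, ADAM10 and ADAMTS9 did not differ beyond the spread of ADAM10, which ran from 95.5 to 153 TPM.

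**Figure D2:**
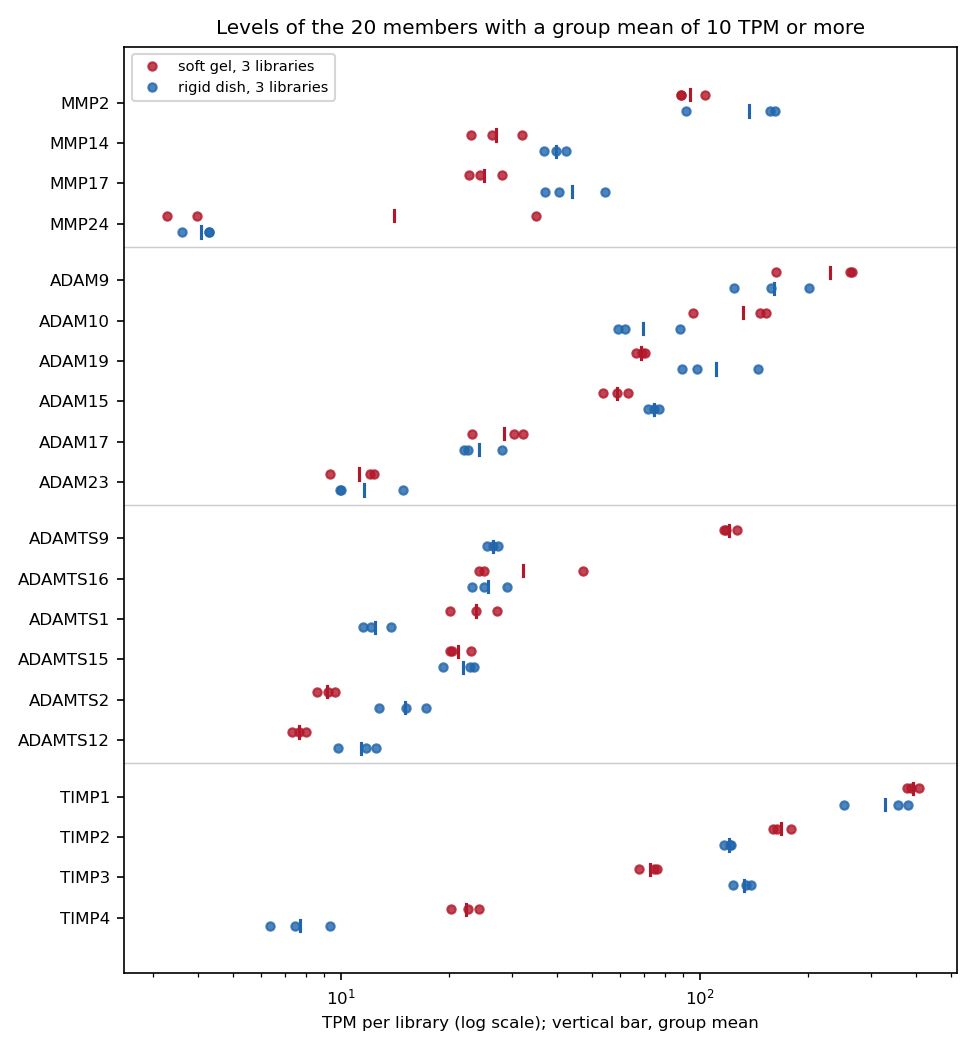
TPM per library on a log axis for the 20 members with a group mean of 10 TPM or more, by family, with each gene's soft gel libraries drawn above its rigid dish libraries and a vertical bar at each group mean. ADAMTS9 has the widest separation, at 117 to 127 TPM in soft gel and 25.5 to 27.5 TPM on the rigid dish, while a single library sets the soft gel mean of MMP24 and raises that of ADAMTS16.

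ADAMTS9 is a secreted protease that cleaves the proteoglycans versican and aggrecan (ENSG00000163638, hg38 chromosome 3, 64515654 to 64688000, minus strand). It held 118, 127 and 117 TPM in the soft gel libraries and 25.5, 27.5 and 26.6 TPM in the rigid dish libraries. The groups lay far apart relative to their spread. Its log2 fold change was 2.05 (SE 0.140, edgeR adjusted p = 0.000105), a 4.14-fold rise. Its share of all ADAMTS TPM was 52.8% ± 2.60 in soft gel and 21.2% ± 0.680 on the rigid dish. The antisense gene ADAMTS9-AS1, which overlaps it on the opposite strand, had 138, 187 and 116 counts in soft gel and 15, 13 and 5 counts on the rigid dish, at most 1.68% of the ADAMTS9 counts. No strand setting is given in the sources used here, so reads of the pair cannot be told apart.

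Other proteoglycan-cleaving ADAMTS genes also rose. ADAMTS1, a versican-cleaving enzyme with anti-angiogenic activity (chromosome 21, 26835747 to 26845409, minus strand), held 23.9, 27.2 and 20.2 TPM in soft gel and 13.8, 12.2 and 11.5 TPM on the rigid dish. All soft gel libraries were higher than all rigid dish libraries, and the log2 fold change was 0.92 (SE 0.118, edgeR adjusted p = 0.00139). Its chromosome 21 neighbour ADAMTS5, a major aggrecanase of cartilage, was scarce, with 24, 36 and 17 counts in soft gel and 10, 9 and 10 counts on the rigid dish (log2 fold change 1.42, edgeR adjusted p = 0.0284). ADAMTS5 no longer passed on leaving out soft gel 1 (adjusted p = 0.0822), soft gel 2 (0.138), rigid dish 1 (0.0559), rigid dish 2 (0.106) or rigid dish 3 (0.0784). ADAMTS15 did not pass the threshold, at 20.4, 23.1 and 20.2 TPM in soft gel and 19.3, 23.0 and 23.5 TPM on the rigid dish (-0.10, edgeR adjusted p = 0.639). ADAMTS4, another aggrecanase (-0.41, edgeR adjusted p = 0.126), ADAMTS20 (0.33, 0.391) and ADAMTS6 (-0.15, 0.693) did not pass either, although ADAMTS4 did without rigid dish 1 (adjusted p = 0.00695) and with no low-count filter (0.0277).

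The procollagen N-proteinase ADAMTS2, which removes the amino-terminal propeptide of fibrillar collagens (chromosome 5, 179110851 to 179345430, minus strand), moved the other way. It held 8.60, 9.62 and 9.21 TPM in soft gel and 15.2, 17.3 and 12.8 TPM on the rigid dish. The groups did not overlap, at -0.75 (SE 0.125) on the log2 scale (edgeR adjusted p = 0.00373). Its relative ADAMTS3 was at 4.68 ± 0.499 TPM in soft gel and 3.33 ± 0.723 TPM on the rigid dish and did not pass (0.49, edgeR adjusted p = 0.0561, and 0.0155 without rigid dish 1). The ratio of ADAMTS9 to ADAMTS2 TPM was 13.7, 13.2 and 12.7 in the soft gel libraries and 1.69, 1.59 and 2.08 in the rigid dish libraries.

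ADAMTS7 and ADAMTS12 both cleave the cartilage oligomeric matrix protein COMP. ADAMTS7 rose, with 105, 127 and 125 counts in soft gel and 60, 74 and 62 counts on the rigid dish (log2 fold change 0.90, edgeR adjusted p = 0.0196). ADAMTS12 held 7.30, 7.65 and 8.01 TPM in soft gel and 11.8, 9.86 and 12.6 TPM on the rigid dish, and did not pass (-0.35, edgeR adjusted p = 0.0598, 0.0462 without soft gel 3, 0.0316 by DESeq2 and 0.0450 with DESeq2 size factors). ADAMTS13, the protease of von Willebrand factor, rose at low level, with 80, 44 and 63 counts in soft gel and 21, 32 and 25 counts on the rigid dish (1.29, edgeR adjusted p = 0.0236). TPM of ADAMTS13 overlapped between the groups (0.57 in soft gel 2 and 0.77 in rigid dish 1). ADAMTS7 no longer passed on leaving out soft gel 2 (adjusted p = 0.0715), soft gel 3 (0.0560) or rigid dish 3 (0.0586), and ADAMTS13 on leaving out soft gel 1 (0.102), soft gel 3 (0.0570) or rigid dish 3 (0.0631). Both genes overlap a far more abundant gene on the opposite strand, MORF4L1 for ADAMTS7 and REXO4 for ADAMTS13, and reads of each pair cannot be told apart without strand. Neither neighbour passed the threshold (log2 fold change 0.04, edgeR adjusted p = 0.775 for MORF4L1, and -0.29, 0.102 for REXO4).

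ADAMTS16, a gene expressed in kidney and gonad in development, showed a difference between counts and TPM. Its counts were 1776, 1608 and 1146 in soft gel and 1780, 2239 and 1911 on the rigid dish (log2 fold change -0.37, edgeR adjusted p = 0.116, 0.0210 without rigid dish 1 and 0.0232 with no low-count filter). The TPM values were 25.1, 24.2 and 47.3 in soft gel and 25.0, 29.01 and 23.3 on the rigid dish. Soft gel 3 thus had the fewest counts and the highest TPM. Summed over the 19 ADAMTS genes, TPM was 218, 233 and 235 in soft gel and 124, 131 and 121 on the rigid dish, without overlap. ADAMTS9 alone held 118, 127 and 117 TPM of these sums in soft gel and 25.5, 27.5 and 26.6 TPM on the rigid dish. The soft gel 3 sum also includes the ADAMTS16 value of 47.3 TPM. No sum without ADAMTS9 or ADAMTS16 is given, so the separation is not shown for the rest of the family.

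**Figure D3:**
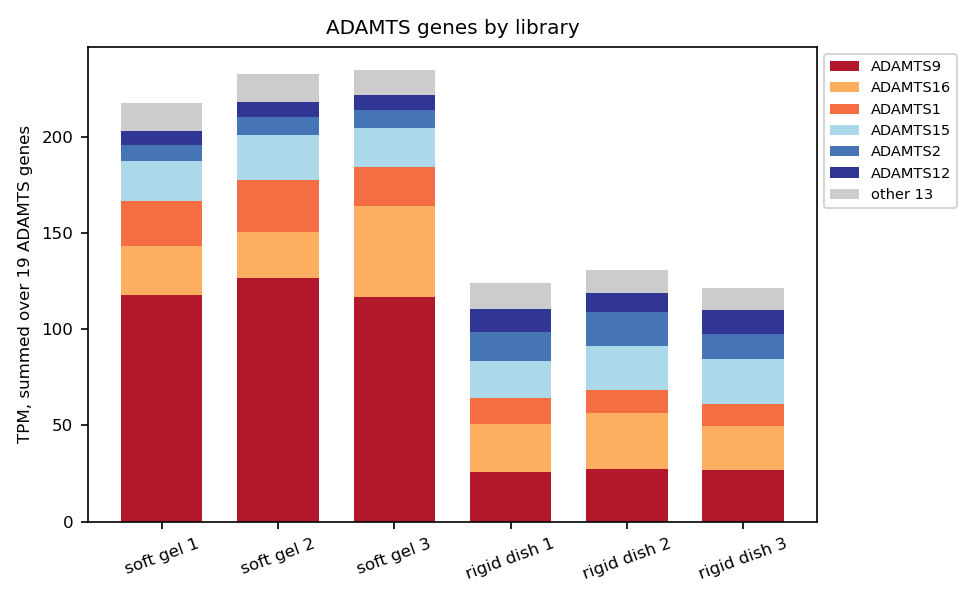
TPM summed over the 19 ADAMTS genes in each library, stacked by gene, with the 3 soft gel libraries on the left and the 3 rigid dish libraries on the right. The soft gel bars reach 218 to 235 TPM and the rigid dish bars 121 to 131 TPM, and the ADAMTS9 segment takes 52.8% of the soft gel bars on average and 21.2% of the rigid dish bars.

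Among the MMPs, the secreted gelatinase MMP2, which degrades denatured collagen and basement membrane collagen, was the most abundant (chromosome 16, 55389700 to 55506691, plus strand). It held 88.7, 104 and 88.8 TPM in soft gel and 91.4, 162 and 157 TPM on the rigid dish. Rigid dish 1 lay within the soft gel range and the other two rigid dish libraries above it. MMP2 did not pass the threshold with all libraries (log2 fold change -0.67, SE 0.257, edgeR adjusted p = 0.0753), and passed without rigid dish 1 (-0.96, adjusted p = 0.000436). With all 6 libraries it passed by DESeq2 (-0.72, adjusted p = 0.0153) and with no low-count filter (-0.74, 9.93e-06). It did not pass with a filter of 1 CPM (-0.65, 0.0804) or by limma-voom (-0.59, 0.127). In all, MMP2 did not pass under 11 of the 15 alternatives. Why its adjusted p-value differed so much with no filter was not tested.

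The membrane-type MMPs, which act at the cell surface, split by direction. MMP14, the activator of proMMP2 and a pericellular collagenase (chromosome 14, 22836557 to 22849027, plus strand), held 31.9, 26.4 and 23.0 TPM in soft gel and 36.7, 39.7 and 42.5 TPM on the rigid dish. It fell without overlap (-0.72, SE 0.181, edgeR adjusted p = 0.0189), and it no longer passed on leaving out soft gel 2 (adjusted p = 0.0783) or rigid dish 2 (0.0739). MMP17, a glycolipid-anchored enzyme (chromosome 12, 131828393 to 131851783, plus strand), held 28.2, 22.8 and 24.5 TPM in soft gel and 54.5, 40.6 and 36.9 TPM on the rigid dish. All its soft gel libraries were lower, at -0.90 (SE 0.123) on the log2 scale (edgeR adjusted p = 0.00175). The transmembrane enzymes MMP15 and MMP16 rose. MMP15 had 288, 257 and 305 counts in soft gel and 154, 185 and 201 counts on the rigid dish (0.69, edgeR adjusted p = 0.0356). MMP16 had 1072, 1302 and 791 counts in soft gel and 875, 652 and 546 counts on the rigid dish (0.65, edgeR adjusted p = 0.0187), without overlap after scaling to library size, whereas its TPM values overlapped. Leaving out any 1 library except rigid dish 3 took the MMP15 call away (adjusted p = 0.0510 to 0.112), and leaving out soft gel 1, soft gel 2, rigid dish 2 or rigid dish 3 took away that of MMP16 (0.0662 to 0.0859).

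MMP24, a membrane-type MMP expressed in the nervous system (chromosome 20, 35226654 to 35277000, plus strand), had 139, 137 and 168 counts in soft gel and 234, 211 and 236 counts on the rigid dish. It did not pass (log2 fold change -0.57, edgeR adjusted p = 0.0529), and passed without soft gel 3 (-0.81, 0.0138) or rigid dish 1 (-0.63, 0.0359). With all 6 libraries it passed by DESeq2 (adjusted p = 0.0274), with DESeq2 size factors (0.0457), by limma-voom (0.0496) and with no low-count filter (0.0245). Its TPM values were 35.0, 3.29 and 3.98 in soft gel and 4.31, 3.62 and 4.29 on the rigid dish, so that the TPM of soft gel 1 stood apart while its count did not. MMP24OS, on the opposite strand, held 933 to 1301 counts per library, several times more than MMP24, and reads of the pair cannot be told apart. MMP25 was near the detection limit (0.30, edgeR adjusted p = 0.669).

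MMP28, a secreted MMP also called epilysin, had the largest fall on the log2 scale among the tested members, at 17, 11 and 10 counts in soft gel and 33, 40 and 51 counts on the rigid dish. Its log2 fold change was -1.68 (SE 0.387, edgeR adjusted p = 0.0136), and it no longer passed on leaving out soft gel 2 (adjusted p = 0.0642) or rigid dish 2 (0.0506). MMP28 overlaps TAF15 on the opposite strand, which held 5138 to 8318 counts per library and did not pass (-0.26, edgeR adjusted p = 0.0940). MMP11, a stromelysin first known from tumour stroma, did not pass (0.01, SE 0.292, edgeR adjusted p = 0.981). MMP19 (0.44, edgeR adjusted p = 0.620) did not pass and had 3 to 21 counts.

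A cluster of 9 secreted MMP genes lies within 435.2 kb of chromosome 11 (102520508 to 102955734). MMP10, stromelysin 2, which degrades proteoglycans and activates other proMMPs, rose. It had 142, 108 and 130 counts in soft gel and 24, 42 and 48 counts on the rigid dish, and the lowest soft gel library held more than 2 times the highest rigid dish library. Its log2 fold change was 1.76 (SE 0.323, edgeR adjusted p = 0.00554). The interstitial collagenase MMP1, beside it, had 179, 123 and 134 counts in soft gel and 37, 112 and 126 counts on the rigid dish. Rigid dish 1 stood well below the other two, and MMP1 did not pass (0.66, SE 0.423, edgeR adjusted p = 0.258). The matrilysin MMP7 had 18, 15 and 26 counts in soft gel and 13, 9 and 9 counts on the rigid dish (0.99, SE 0.424, edgeR adjusted p = 0.107). The other 6 genes of the cluster held at most 4 counts in any library. Over the 9 genes, each soft gel library held 249 to 344 counts and each rigid dish library 81 to 183.

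**Figure D4:**
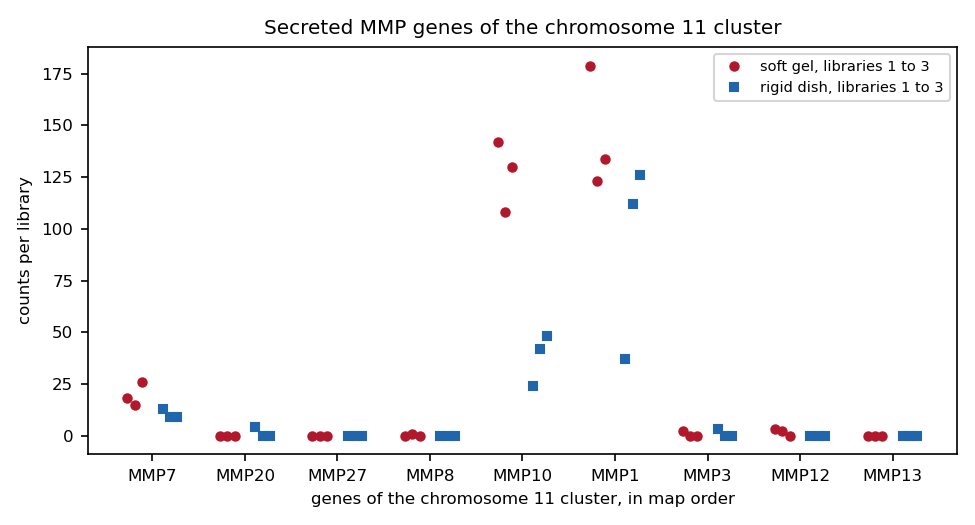
Counts per library of the 9 MMP genes of the chromosome 11 cluster in map order, with soft gel libraries (circles) left of rigid dish libraries (squares) for each gene. MMP10 separates the groups, at 108 to 142 counts in soft gel and 24 to 48 on the rigid dish, MMP1 overlaps in its raw counts, and 6 genes lie at 0 to 4 counts.

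Promoters of 40 of the 70 members were found in the RefSeq table (GRCh38.p14), including 13 of the 19 genes past the threshold. Of these 19, the risen genes ADAMTS9, ADAMTS1, ADAMTS5 and MMP16 and the fallen genes MMP17 and MMP28 had no window and are missing from the shares below. The 250 bases before the start site were searched on both strands for short patterns. TGANTCA, where N is any base, is a loose pattern for the AP-1 site, bound by FOS and JUN proteins. The others were TGACGTCA (the cyclic AMP response element), TATAAA (the TATA box) and GGGCGG (the GC box, bound by Sp1). TGANTCA was present in 1 of 8 windows of risen genes (MMP10), 0 of 5 of fallen genes, 2 of 12 of tested genes that did not pass (MMP7 and ADAMTS12) and 1 of 16 of untested genes (MMP20), against 6.57% of all 35116 promoters. GGGCGG was present in 7 of 8 windows of risen genes, 4 of 5 of fallen genes, 10 of 12 of tested genes that did not pass and 6 of 16 of untested genes, against 42.6% of all promoters. TATAAA was present in 1 of 8, 0 of 5, 1 of 12 and 5 of 16 windows of the same 4 sets, against 10.7%. TGACGTCA was in no member's window, against 1.65% of all promoters. The median GC content of the windows was 67.0% for risen genes, 76.4% for fallen genes, 70.8% for tested genes that did not pass, 55.0% for untested genes and 58.0% for all promoters. Such matches describe letters and are not evidence of binding. Of the cluster genes, only MMP7, MMP8, MMP10, MMP20 and MMP27 had a window. MMP1, MMP3, MMP12 and MMP13 had none and were not searched. MMP10 and MMP7 are shown because the same layout appears in both. TGANTCA starts 67 bases before the start site in both, as TGAATCA in MMP10 and TGAGTCA in MMP7. TATAAA starts 31 bases before the start site in MMP10 and 30 in MMP7. The untested cluster gene MMP20 also held both motifs, TGANTCA starting 112 bases and TATAAA 72 bases before its start site. TIMP4 and TIMP3, the inhibitors that moved in opposite directions, are shown for contrast, since GC boxes are the matches found in both, 1 in TIMP4 and 5 in TIMP3. Capitals mark the motif matches, which do not overlap one another. The windows, 5′ to 3′ on the gene's strand, are chr11:102780629-102780878 (minus) for MMP10, chr11:102530748-102530997 (minus) for MMP7, chr3:12158913-12159162 (minus) for TIMP4 and chr22:32801455-32801704 (plus) for TIMP3.
MMP10: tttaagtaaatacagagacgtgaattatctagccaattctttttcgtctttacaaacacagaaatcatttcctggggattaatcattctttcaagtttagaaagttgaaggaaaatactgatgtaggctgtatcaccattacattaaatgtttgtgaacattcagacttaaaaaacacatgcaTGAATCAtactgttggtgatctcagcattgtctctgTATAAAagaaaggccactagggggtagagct
MMP7: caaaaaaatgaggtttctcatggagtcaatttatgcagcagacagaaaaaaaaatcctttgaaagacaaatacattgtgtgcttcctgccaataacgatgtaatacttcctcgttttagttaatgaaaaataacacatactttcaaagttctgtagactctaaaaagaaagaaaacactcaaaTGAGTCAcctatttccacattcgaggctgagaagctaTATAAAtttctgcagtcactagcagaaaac
TIMP4: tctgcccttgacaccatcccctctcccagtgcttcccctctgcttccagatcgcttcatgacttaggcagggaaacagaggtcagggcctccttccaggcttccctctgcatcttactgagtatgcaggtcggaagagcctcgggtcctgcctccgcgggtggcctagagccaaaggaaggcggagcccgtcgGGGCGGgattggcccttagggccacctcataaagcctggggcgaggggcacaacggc
TIMP3: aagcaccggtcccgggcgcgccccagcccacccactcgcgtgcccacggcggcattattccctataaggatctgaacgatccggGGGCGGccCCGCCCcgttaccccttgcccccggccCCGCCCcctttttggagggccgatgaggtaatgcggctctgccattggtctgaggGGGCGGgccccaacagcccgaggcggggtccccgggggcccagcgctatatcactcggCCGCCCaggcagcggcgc

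Among the ADAMs with a catalytic site, ADAM10 rose and ADAM19 and ADAM15 fell. ADAM10, the main sheddase of Notch receptors and of cadherins (chromosome 15, 58588807 to 58749978, minus strand), held 147, 153 and 95.5 TPM in soft gel and 87.9, 61.7 and 59.4 TPM on the rigid dish. The groups did not overlap, although soft gel 3 lay closer to rigid dish 1 than to the other soft gel libraries. Its log2 fold change was 0.79 (SE 0.191, edgeR adjusted p = 0.0158). ADAM10 failed the threshold on leaving out soft gel 1 (adjusted p = 0.0709), soft gel 2 (0.0742), rigid dish 2 (0.0656) or rigid dish 3 (0.0624). ADAM17, the sheddase of tumour necrosis factor and of ligands of the epidermal growth factor receptor, held 32.1, 30.3 and 23.2 TPM in soft gel and 28.1, 22.01 and 22.6 TPM on the rigid dish, and did not pass (0.19, SE 0.106, edgeR adjusted p = 0.210). It overlaps IAH1 on the opposite strand, which is about as abundant in counts.

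ADAM9 held 261, 265 and 163 TPM in soft gel and 201, 157 and 124 TPM on the rigid dish. Soft gel 3 overlapped the rigid dish range, and ADAM9 did not pass (log2 fold change 0.45, SE 0.176, edgeR adjusted p = 0.0827), but passed without soft gel 3 (0.57, 0.0144), without rigid dish 1 (0.52, 0.0496) or with no low-count filter (0.38, 0.0459). ADAM19, a sheddase of neuregulins (chromosome 5, 157395534 to 157575775, minus strand), held 69.0, 66.5 and 70.4 TPM in soft gel and 145, 98.2 and 89.0 TPM on the rigid dish. The soft gel libraries were close together and all lower (-0.76, SE 0.123, edgeR adjusted p = 0.00354). CYFIP2, which overlaps ADAM19 on the opposite strand, also fell (-0.42, edgeR adjusted p = 0.0180), and reads of the pair cannot be told apart. ADAM15, which carries an integrin-binding RGD motif in the human protein (chromosome 1, 155050566 to 155062775, plus strand), held 58.9, 53.8 and 63.2 TPM in soft gel and 74.3, 71.7 and 76.9 TPM on the rigid dish. It fell without overlap (-0.54, SE 0.129, edgeR adjusted p = 0.0152), and it no longer passed on leaving out soft gel 1 (adjusted p = 0.0627), soft gel 2 (0.0716) or rigid dish 2 (0.0577).

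ADAM8, a sheddase best known from leukocytes, rose at low level, with 78, 52 and 50 counts in soft gel and 31, 36 and 28 counts on the rigid dish (log2 fold change 0.95, edgeR adjusted p = 0.0371). Each of the 6 libraries, when left out, took this call away (adjusted p = 0.0594 to 0.162). TPM of ADAM8 overlapped between the groups (1.58 in soft gel 3 and 1.65 in rigid dish 2). ADAM12, which is high in fetal and regenerating tissue, averaged 6.36 ± 1.84 TPM in soft gel and 6.41 ± 1.43 TPM on the rigid dish (-0.11, edgeR adjusted p = 0.670). ADAM28 (0.59, edgeR adjusted p = 0.386) had 6 to 23 counts.

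Among the ADAMs without a catalytic site, ADAM22, a neuronal receptor for the secreted protein LGI1, rose. ADAM22 (chromosome 7, 87934143 to 88202889, plus strand) held 10.9, 8.65 and 5.64 TPM in soft gel and 4.89, 3.56 and 4.04 TPM on the rigid dish. All soft gel libraries were higher, at 1.13 (SE 0.202) on the log2 scale (edgeR adjusted p = 0.00499). Its relative ADAM23, also an LGI1 receptor, held 12.0, 12.4 and 9.32 TPM in soft gel and 14.9, 9.97 and 10.02 TPM on the rigid dish, and did not pass (-0.22, edgeR adjusted p = 0.207). ADAM11 (0.52, edgeR adjusted p = 0.194) and ADAM32 (0.30, 0.657) were scarce and did not pass.

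The order of libraries within groups differed between genes, and no test was run on it. Soft gel 3 held the lowest scaled CPM of the soft gel libraries, and rigid dish 1 the highest of the rigid dish libraries, for 5 of the 12 tested ADAM genes (ADAM9, ADAM10, ADAM12, ADAM22 and ADAM32), beside 24.5% of all tested genes. The opposite order held for 1 of 12 ADAM genes (ADAM15) and for 3 of 5 inhibitors (TIMP1, TIMP2 and TIMP3), beside 24.6% of all tested genes. Over all 43 tested members the shares were 18.6% and 23.3%. Summed over 22 ADAM genes, TPM was 605, 601 and 438 in soft gel and 567, 433 and 394 on the rigid dish, with overlap. Within these sums, ADAM10 took 23.8% ± 1.86 in soft gel and 14.9% ± 0.643 on the rigid dish, and ADAM19 took 12.9% ± 2.81 in soft gel and 23.6% ± 1.70 on the rigid dish, without overlap for either gene.

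The inhibitors changed in composition. TIMP3, which binds to the matrix (chromosome 22, 32801701 to 32863043, plus strand), held 74.4, 67.9 and 75.9 TPM in soft gel and 139, 135 and 124 TPM on the rigid dish. It fell without overlap, at -0.95 (SE 0.112) on the log2 scale (edgeR adjusted p = 0.00102). TIMP4, the member known mainly from heart and brain (chromosome 3, 12153051 to 12159351, minus strand), held 22.6, 24.3 and 20.3 TPM in soft gel and 6.35, 7.48 and 9.35 TPM on the rigid dish. It rose without overlap (1.43, SE 0.221, edgeR adjusted p = 0.00289). TIMP1, TIMP3 and TIMP4 each lie within a synapsin gene on the opposite strand, and SYN1, SYN3 and SYN2 held at most 8 counts in any library.

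TIMP2, which inhibits MMP2 and also takes part in its activation by MMP14 (chromosome 17, 78852977 to 78925387, minus strand), held 160, 164 and 179 TPM in soft gel and 117, 122 and 123 TPM on the rigid dish. Its TPM values did not overlap between groups, yet it did not pass (log2 fold change 0.38, SE 0.133, edgeR adjusted p = 0.0576). With limma on log2(TPM + 1) it passed (0.47, adjusted p = 0.0147), as with log2(TPM + 0.1) (0.48, 0.0160), upper quartile scaling (0.42, 0.0390) and a filter of 1 CPM (0.40, 0.0461). TIMP1, a secreted inhibitor of most MMPs (chromosome X, 47582313 to 47586789, plus strand), held 409, 377 and 387 TPM in soft gel and 252, 355 and 379 TPM on the rigid dish. Its groups overlapped, it did not pass (0.15, SE 0.191, edgeR adjusted p = 0.586), and its sign turned without rigid dish 1 (-0.071, adjusted p = 0.634). RECK, a membrane-anchored MMP inhibitor, held 6.23, 4.40 and 4.81 TPM in soft gel and 6.48, 4.40 and 5.34 TPM on the rigid dish, and did not pass (0.23, edgeR adjusted p = 0.337). On the TPM scale the sign of RECK was the opposite (-0.058 with log2(TPM + 1) and -0.068 with log2(TPM + 0.1)).

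**Figure D5:**
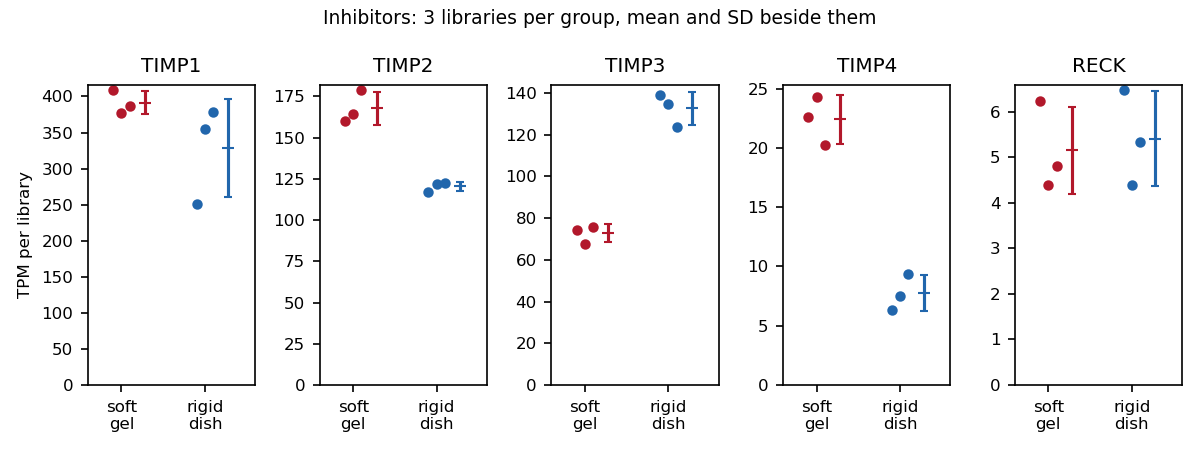
TPM per library of the 5 inhibitors, each panel on its own axis from 0, with soft gel left of rigid dish and the mean ± SD (n = 3) beside the points. TIMP3 is lower (67.9 to 75.9 TPM in soft gel against 124 to 139 TPM on the rigid dish) and TIMP4 higher (20.3 to 24.3 TPM in soft gel against 6.35 to 9.35 TPM on the rigid dish), TIMP2 is separated by less, and TIMP1 and RECK overlap.

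Ratios of levels between enzymes and inhibitors are given as descriptions, without a test. The TPM ratio of MMP14 to TIMP2 was 0.199, 0.161 and 0.128 in soft gel and 0.314, 0.327 and 0.347 on the rigid dish. That of MMP2 to TIMP2 was 0.553, 0.632 and 0.496 in soft gel and 0.781, 1.33 and 1.28 on the rigid dish. Both were lower in every soft gel library. The ratio of ADAM10 to TIMP3 was 1.97, 2.25 and 1.26 in soft gel and 0.632, 0.458 and 0.479 on the rigid dish, and that of ADAM17 to TIMP3 was 0.432, 0.447 and 0.306 in soft gel and 0.202, 0.163 and 0.183 on the rigid dish, both higher in every soft gel library. Summed over the 5 inhibitors, TPM was 672, 638 and 667 in soft gel and 521, 623 and 640 on the rigid dish, and the log2 ratio of the means was 0.15 in TPM but -0.17 in scaled CPM, which does not correct for gene length. TIMP2 took 25.5% ± 1.51 of the inhibitor TPM in soft gel and 20.4% ± 1.84 on the rigid dish, and TIMP3 took 11.02% ± 0.369 in soft gel and 22.6% ± 3.77 on the rigid dish. Summed over 24 MMP genes, TPM was 220, 186 and 181 in soft gel and 206, 268 and 261 on the rigid dish, with overlap. Without MMP24, whose TPM in soft gel 1 disagreed with its counts, the sums over 23 genes were 185, 182 and 177 TPM in soft gel and 202, 264 and 256 TPM on the rigid dish, without overlap, a comparison chosen after the values were seen.

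Of 24 genes that activate, bind or localize these proteases, 19 were tested, of which 3 rose and 5 fell (42.1%, median log2 fold change -0.26, beside 28.6% and 0.05 over all tested genes). The plasminogen activators PLAT (176 ± 16.4 TPM in soft gel, 389 ± 21.8 TPM on the rigid dish, edgeR adjusted p = 0.000646) and PLAU (335 ± 10.1 TPM in soft gel and 661.6 ± 131 TPM on the rigid dish, 0.00514), whose product plasmin can activate proMMPs, fell, as did THBS1, thrombospondin-1 (201.0 ± 30.9 TPM in soft gel and 322 ± 139 TPM on the rigid dish, 0.0295). TPM of THBS1 overlapped between the groups (236 in soft gel 1 and 225 in rigid dish 3), while its scaled CPM did not. TFPI2, a serine protease inhibitor of the matrix (67.0 ± 4.77 TPM in soft gel and 32.9 ± 12.1 TPM on the rigid dish, 0.0047), CTSL, the lysosomal cathepsin L (181 ± 2.81 TPM in soft gel and 110.4 ± 3.42 TPM on the rigid dish, 0.00724), and CD44, a hyaluronan receptor (2608 ± 25.4 TPM in soft gel and 2125 ± 162 TPM on the rigid dish, 0.0371), rose. Leaving out rigid dish 1 gave 9 fallen genes, and leaving out soft gel 2 gave 3, as did limma on log2(TPM + 1) or log2(TPM + 0.1). Of 9 partners of ADAM10 and ADAM17, 2 fell and 0 rose by edgeR (0 also by DESeq2, and 0 at an unadjusted p below 0.05), a share of 22.2% with a median of -0.21. TSPAN15, a tetraspanin that directs ADAM10 to its substrates, held 39.9 ± 3.58 TPM in soft gel and 73.1 ± 7.80 TPM on the rigid dish (log2 fold change -0.96, edgeR adjusted p = 0.00288), and RHBDF2, the iRhom2 that carries ADAM17 to the surface, held 18.6 ± 1.03 TPM in soft gel and 23.1 ± 3.49 TPM on the rigid dish (-0.48, 0.0144). For RHBDF2, TPM overlapped between the groups (19.45 in soft gel 3 and 19.21 in rigid dish 3) and scaled CPM did not. Fallen partners numbered 4 on leaving out soft gel 3 or rigid dish 1, and 1 on leaving out soft gel 1, soft gel 2 or rigid dish 2 or with limma on either TPM scale.

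Of 38 tested genes for proteins shed by ADAMs, 8 rose and 8 fell (median -0.02). That is 42.1%, beside 28.6% of all tested genes. The amyloid precursor protein gene APP (752 ± 50.3 TPM in soft gel and 420.2 ± 30.7 TPM on the rigid dish), the NKG2D ligand gene MICA (80.7 ± 8.72 TPM in soft gel and 49.4 ± 3.15 TPM on the rigid dish) and KITLG, the ligand of KIT (6.0 ± 1.77 TPM in soft gel and 3.35 ± 1.35 TPM on the rigid dish), rose (edgeR adjusted p = 0.00149, 0.0142 and 0.047). The groups overlapped for KITLG in scaled CPM and in TPM (3.96 in soft gel 3 and 4.77 in rigid dish 1). AXL, a receptor tyrosine kinase (71.4 ± 6.66 TPM in soft gel and 131 ± 16.8 TPM on the rigid dish), NRG1, neuregulin-1 (61.9 ± 3.48 TPM in soft gel and 109 ± 21.2 TPM on the rigid dish), and TNFRSF1A, a receptor of tumour necrosis factor (93.5 ± 9.07 TPM in soft gel and 149.6 ± 7.21 TPM on the rigid dish), fell (edgeR adjusted p = 0.00114, 0.00189 and 0.00521). Risen genes numbered 2 on leaving out soft gel 1 or soft gel 2, 1 on leaving out rigid dish 2 and 4 on leaving out rigid dish 3. Fallen genes numbered 4 on leaving out soft gel 1 or rigid dish 2, and 3 on leaving out soft gel 2. With limma on either TPM scale, 5 rose and 5 fell.

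Of 15 tested genes for matrix proteins cut by MMPs and ADAMTS enzymes, 6 fell and 1 rose (median -0.31). That is 46.7%, beside 28.6% of all tested genes. COL5A1, a fibrillar collagen chain, held 19.3 ± 0.438 TPM in soft gel and 60.0 ± 3.80 TPM on the rigid dish (log2 fold change -1.596, edgeR adjusted p = 0.000284). The basement membrane collagens COL4A2 (120 ± 4.97 TPM in soft gel and 233 ± 20.2 TPM on the rigid dish, -1.12, edgeR adjusted p = 0.00115) and COL4A1 (67.0 ± 7.23 TPM in soft gel and 104 ± 17.7 TPM on the rigid dish, -0.82, 0.00675) also fell. ELN, elastin, was the gene that rose, from so few reads that it falls outside the naming rule and is named as the single riser after its values were seen (1.16 TPM in soft gel and 0.0233 TPM on the rigid dish on average). Leaving out soft gel 3 gave 2 risen genes, as did limma on either TPM scale, with 4 fallen genes on log2(TPM + 1) and 3 on log2(TPM + 0.1). Of 10 tested astacin, ADAMTS-like and procollagen enhancer genes, 1 fell, THSD4, an ADAMTS-like protein of microfibrils (8.53 ± 1.602 TPM in soft gel and 14.9 ± 1.85 TPM on the rigid dish, -1.03, edgeR adjusted p = 0.00172), and 0 rose by edgeR (0 also by DESeq2, 0 at an unadjusted p below 0.05, and 1 on leaving out rigid dish 1), with a median of 0.07.

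Of 18 transcription factors of the AP-1, ETS, RUNX and NF-kB families, which are known to act on MMP promoters, 4 rose and 9 fell (median -0.48). That is 72.2%, beside 28.6% of all tested genes. FOS (93.3 ± 21.9 TPM in soft gel and 1.19 ± 0.203 TPM on the rigid dish, edgeR adjusted p = 1.38e-05), FOSB (22.9 ± 7.33 TPM in soft gel and 0.493 ± 0.301 TPM on the rigid dish, 1.48e-05) and ETV1 (28.8 ± 3.99 TPM in soft gel and 13.1 ± 0.619 TPM on the rigid dish, 0.0113) rose. The FOS relatives FOSL2 (41.3 ± 5.44 TPM in soft gel and 76.5 ± 9.16 TPM on the rigid dish, edgeR adjusted p = 0.00141) and FOSL1 (167 ± 18.7 TPM in soft gel and 310 ± 35.1 TPM on the rigid dish, 0.00169) and the ETS factor ETS2 (34.3 ± 4.60 TPM in soft gel and 56.3 ± 16.4 TPM on the rigid dish, 0.0076) fell. With limma on either TPM scale, 4 factors rose and 5 fell. Whether these factors bear on the members was not tested. The part of rigid dish 1 and soft gel 3 in the lists was examined only by leaving out libraries.

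In the authors' deposited table, 10 members were higher and 11 lower at an adjusted p below 0.05. The authors' deposited table gave ADAMTS9 a log2 fold change of 1.92 and TIMP3 one of -0.97. In the authors' deposited table, ADAM8 (adjusted p = 0.0703) and ADAMTS5 (0.0757) did not pass, while MMP2 (0.00911), MMP24 (0.0331), ADAMTS12 (0.0357) and ADAMTS16 (0.0471) did, all 4 lower in soft gel.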

How the data were processed

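The authors deposited a single table of the 6 libraries, with estimated counts per gene (11.3% to 13.0% of genes per library hold decimals beyond 0.001), TPM values that sum to 985477 to 991371 per library, gene length and their own comparison as a fold (ratio), log2 fold change, p-value and adjusted p-value, per the file headers. HISAT2, HTSeq and the build hg38 are named, with neither version nor role, per the submitters' processing notes. Per the labels' protocols, TRIzol was used to isolate RNA, and an Illumina TruSeq kit to build the libraries.

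Counts were rounded and genes filtered with filterByExpr (minimum count 10). TMM scaled the libraries, and the quasi-likelihood test of edgeR 4.0.16 (with R 4.3.3 and limma 3.58.1) was run over all genes. A gene was called at a Benjamini-Hochberg adjusted p below 0.05. Each SE came from the test statistic. TPM is used for levels, since it corrects for length, and means are ± SD over 3 libraries. For some genes TPM and counts disagreed, and counts are then given. Library totals of 20911340 to 25901465 counts set the precision. Floors describe counting error alone, because reads copied by PCR are no independent molecules. Positions came from GENCODE release 29 (hg38), which held all 70 members.

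The members and lists were chosen with earlier results of these data known. Named were members past the threshold, members with 10 TPM or more, all inhibitors, and up to 3 risen and 3 fallen genes per list with 5 CPM or more. Other names account for the remaining members, mark overlapping genes or check the markers. A further marker list is not reported here. As alternatives, libraries were scaled by upper quartile or by DESeq2 size factors, the low-count filter was dropped or set to 1 CPM in 3 libraries, the replicate number was added as a block, each library was left out, and DESeq2 (1.42.0), limma-voom and limma on log2(TPM + 1) or log2(TPM + 0.1) replaced the test. Applying them to the lists was added after seeing the data. The test was checked on simulated counts with known changes in 200 genes, 3 libraries per group. It recovered 16.2% of the 1.5-fold changes, 69.7% of the 2-fold changes and 95.45% of the 4-fold changes. Of the genes called there, 4.76% were false. Most simulated 1.5-fold changes were thus missed. Only 200 of 15788 genes were changed there, whereas 28.6% of all tested genes were called in the data. Recovery with such a share of changed genes was not tested, so these percentages need not hold for the main test. A gene that did not pass is not shown to be unchanged. Figures were drawn with matplotlib.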

Additional observations from a re-analysis of the deposited data

How the results depend on the processing

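Of 19 members past the threshold, 8 kept their calls under all 15 alternatives and 11 lost them under 1 or more, always with the same direction, and 8 of the other tested members gained a call under 1 or more. Members higher (12) numbered 6 with limma on log2(TPM + 1) or log2(TPM + 0.1) and 6 to 11 on leaving out 1 library. Members lower (7) numbered 11 with no low-count filter and 4 to 11 on leaving out 1 library. All genes higher (2480) numbered 1345 with log2(TPM + 1), 1327 with log2(TPM + 0.1) and 1006 to 3239 on leaving out 1 library, and all genes lower (2123) numbered 968, 960 and 797 to 2925. The cause of these differences was not tested. In CPM in place of TPM, the log2 ratio of the summed levels was 0.75 for ADAMTS genes (0.87 in TPM) and -0.17 for inhibitors (0.15 in TPM). The sign turned for MMP24 (0.86 and 0.92), ADAMTS16 (0.25 and 0.26) and RECK (-0.058 and -0.068) with log2(TPM + 1) and log2(TPM + 0.1), and for TIMP1 without rigid dish 1 (from -0.071 there to 0.27 over the single libraries left out), none of which passed in the main test.

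Deviations from group means of same-numbered libraries correlated at 0.217, 0.00910 and 0.307. Soft gel 2 correlated better with rigid dish 1 (0.137) than with its own number. The other pairs of unlike number correlated at -0.295 to 0.0424, below the same-numbered pairs 1 and 3. These values do not settle whether the libraries are paired, and the main test did not pair them. With the replicate block, 15 members were higher and 11 lower, and 3499 and 2943 of all genes. Under the block TIMP2 (adjusted p = 0.00967), ADAM9 (0.0108), MMP2 (0.0130), ADAMTS3 (0.0153), MMP24 (0.0195), ADAMTS12 (0.0345) and ADAMTS4 (0.0395) also passed. The 27 untested members held at most 20 counts in any library and were left out of the main test. With no low-count filter, 64 members were tested and 12 were higher. ADAM8 (adjusted p = 0.0513) and ADAMTS5 (0.0507) lost their calls there, and ADAM9 (0.0459) gained one. The 12 thus include a member that the filter had removed, whose few counts are a poor basis for a comparison.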
